A study of Homo sapiens with 6 samples.

Results

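The genes described here are 8 members of the PI3K, AKT and mTOR signalling cascade, PIK3CA, PIK3CB, PIK3R2, PIK3R3, AKT1, AKT2, MTOR and RICTOR. They were picked by gene symbol, with no threshold on measured values but with earlier results of these data known, from a table of 14959 genes, and each symbol matched 1 gene of the table. The cells were UM-SCC1, an established line of head and neck squamous cell carcinoma (HNSCC), and their RNA was sequenced. They had been transfected with miR-204-5p mimics (3 libraries) or with control mimics (3 libraries), and the transfection methods give 48 h of culture. Mimics are synthetic duplexes that raise the amount of a miRNA in the cell, and both groups were otherwise the same cell line with no genetic change. All values come from this cell line alone, and since the labels do not say whether the 3 libraries of a group are separate cultures, p-values measure the spread between libraries, which may be technical. The comparison asks which mRNAs differ when miR-204-5p is supplied to HNSCC cells.

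Class I PI3-kinases turn the signal of an activated growth factor receptor into a lipid messenger, PIP3, at the plasma membrane. Each enzyme pairs a catalytic p110 subunit (PIK3CA encodes p110alpha and PIK3CB p110beta) with a regulatory subunit that stabilises p110, holds it inactive and docks it to receptors (PIK3R2 encodes p85beta and PIK3R3 p55gamma). PIP3 brings AKT kinases (AKT1, AKT2) to the membrane, and AKT promotes survival, glucose uptake and growth. MTOR is the kinase of a pair of complexes, mTORC1, which promotes protein synthesis and growth, and mTORC2, which holds RICTOR and phosphorylates AKT. In squamous carcinoma of the head and neck the cascade is often active, and PIK3CA is the member best known for mutation and amplification.

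The table gives FPKM (a count of fragments divided by the transcript length in kilobases and by the mapped fragments of the library in units of 1000000) and no read counts. Depth inferred from the smallest steps in the values was 13.1 to 15.9 M fragments (1 M is 1000000) in the miR-204-5p mimics libraries and 13.9 to 16.4 M in the control mimics libraries. Libraries of the same group ranked the genes slightly more alike (Spearman correlation 0.9899 to 0.9908) than libraries of different groups (0.973 to 0.976), as a description over genes that are not independent. The defining markers of the line were present: 9 of 9 squamous epithelial markers had mean levels of 2.07 to 321 FPKM. Of the markers of other cell types, 7 of 9 were listed, and for 5 the mean level was under 1 FPKM, among them PTPRC, CD3E and PECAM1. CD68 and COL1A1 lay between 8.37 and 10.8 FPKM in the group means. CDH5 was at 0 in at least 1 library, and PDGFRB, at 0.359 against 0.177 FPKM, was the 1 of these 7 called higher. The summed level of these 7 markers was 19.5 to 21.1 FPKM with miR-204-5p mimics and 18.7 to 20.6 FPKM with control mimics. The summed level of the squamous markers was 956 to 1050 FPKM with miR-204-5p mimics and 1100 to 1120 FPKM with control mimics. By limma 5 of these 9 markers were lower, 3 higher and 1 not called, with TP63 going from 55.9 to 27.4 FPKM, DSG3 from 9.05 to 3.99 FPKM and KRT6A from 1.24 to 2.90 FPKM. The part of this shift in the results was not tested. In bulk RNA, fewer expressing cells and less RNA per cell cannot be told apart. The level of miR-204-5p itself is not analysed here.

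A miRNA recognises mRNAs mainly through its seed, bases 2 to 8, which pairs with a complementary stretch in the 3'UTR (the untranslated end of the mRNA). The sequence of miR-204-5p is shown with its seed in capitals, as given by RefSeq on GRCh38.p14 (chr9:70810031-70810052, minus strand, 22 bases).
hsa-miR-204-5p: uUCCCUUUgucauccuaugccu

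Each 3'UTR was searched on the mRNA strand for AAAGGGAA (an 8mer, pairing with the whole seed and followed by an A), AAAGGGA (7mer-m8, the whole seed), AAGGGAA (7mer-A1, bases 2 to 7 followed by an A) and AAGGGA (6mer, bases 2 to 7). A 6mer is contained in each longer match, and every gene was counted under its longest. The longest annotated 3'UTR (GENCODE 29, GRCh38) of PIK3CB and PIK3R3 held an 8mer, those of AKT2 and RICTOR a 7mer-m8, and that of PIK3CA a 7mer-A1. No match of any of the 4 kinds was in the longest 3'UTRs of PIK3R2, AKT1 and MTOR. The 5 matches of at least 7 bases are shown 5' to 3' in windows of 30 bases, in lower case with the match in capitals.
PIK3CB 8mer: atgaccctgttagagatgttatAAAGGGAA
PIK3R3 8mer: cagttactagtgacgaggatagAAAGGGAA
AKT2 7mer-m8: ctattggggtggggggcctctgaAAAGGGA
RICTOR 7mer-m8: gcctcctgaagcataatcttatcAAAGGGA
PIK3CA 7mer-A1: caagaaaagtaaatttgaagattAAGGGAA

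The windows lie, in the same order, at chr3:138655287-138655316 (minus strand, exon 22 of PIK3CB), chr1:46041845-46041874 (minus strand, exon 11 of PIK3R3), chr19:40232890-40232919 (minus strand, exon 14 of AKT2), chr5:38937955-38937984 (minus strand, exon 38 of RICTOR) and chr3:179236253-179236282 (plus strand, exon 21 of PIK3CA). All 5 are in the 3'UTR, and that of PIK3CA is not in the transcript listed for the gene. The match in PIK3CB began 95 bases into a 3'UTR of 2690 bases, close to the stop codon. That in RICTOR began at base 4343 of 4385, next to the end of the mRNA. The others began at base 1821 of 3533 in PIK3R3, 976 of 3555 in AKT2 and 1912 of 5729 in PIK3CA. Among the 14660 genes with an annotated 3'UTR, 8.59% held an 8mer, 9.84% a 7mer-m8 and 8.66% a 7mer-A1 as the longest match, so 27.1% held at least 7 bases. A match of letters is a description of the window and shows no binding. In the coding sequence, PIK3CA held 2 matches of at least 7 bases, PIK3CB 3 and AKT2 1, and the other 5 genes none, where 23.0% of all genes with a coding sequence hold at least 1.

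**Figure D1:**
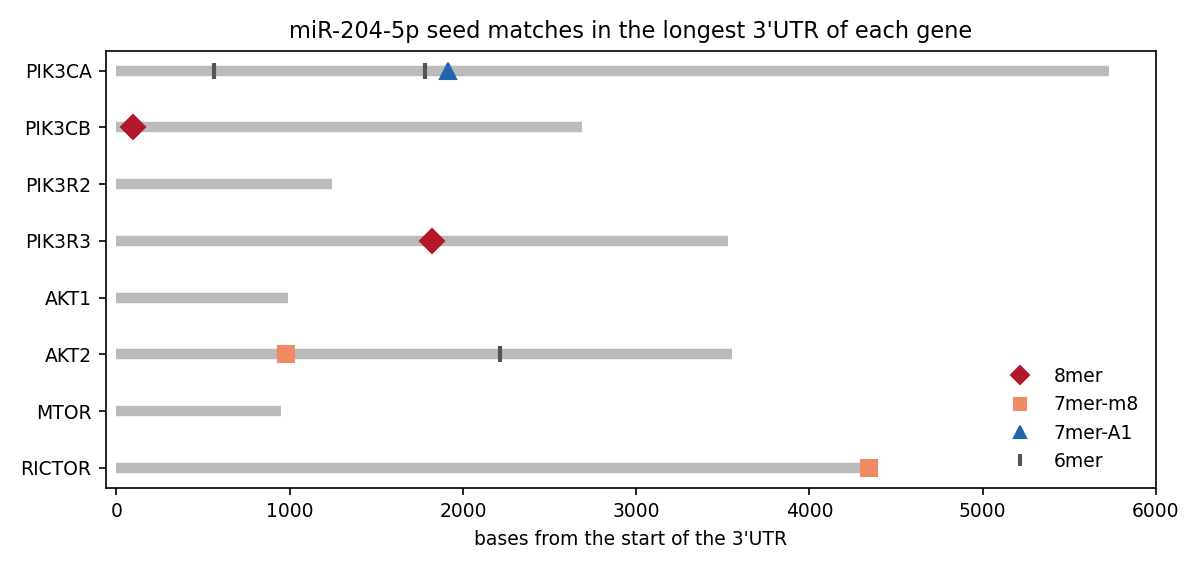
Map of the longest annotated 3'UTR of each of the 8 genes (grey bars, in bases from its start), with every miR-204-5p seed match marked by its kind. PIK3CB carries its 8mer at base 95 and RICTOR its 7mer-m8 at base 4343 of 4385, and the bars of PIK3R2, AKT1 and MTOR carry no mark.

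With miR-204-5p mimics, 3 of the 8 genes fell and none rose: PIK3CB to 0.482 of its control level, PIK3R3 to 0.675 and PIK3R2 to 0.68. All 3 encode subunits of class I PI3K, 1 catalytic and 2 regulatory. PIK3CA, AKT1, AKT2, MTOR and RICTOR did not pass the test. Differences were tested with limma on log2(FPKM + 1) over the whole table, two-sided, at a Benjamini-Hochberg adjusted p under 0.05. At that threshold 40.8% of all genes were called, 16.8% lower and 23.9% higher. The members' share, 37.5% called, was close to this background, which also holds weakly expressed genes. All 8 members had a mean of at least 1 FPKM. With only such genes fitted, 3 of the 8 were called, against 5761 of all 11504 genes. The median log2 fold change of the 8 genes was -0.12, and that of all genes was 0.03. Groups did not overlap for 4 of the 8 genes, against 53.6% of all genes. Fold changes are on the log2(FPKM + 1) scale, on which a weakly expressed gene such as PIK3R3 appears to change less than its FPKM ratio.

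**Figure D2:**
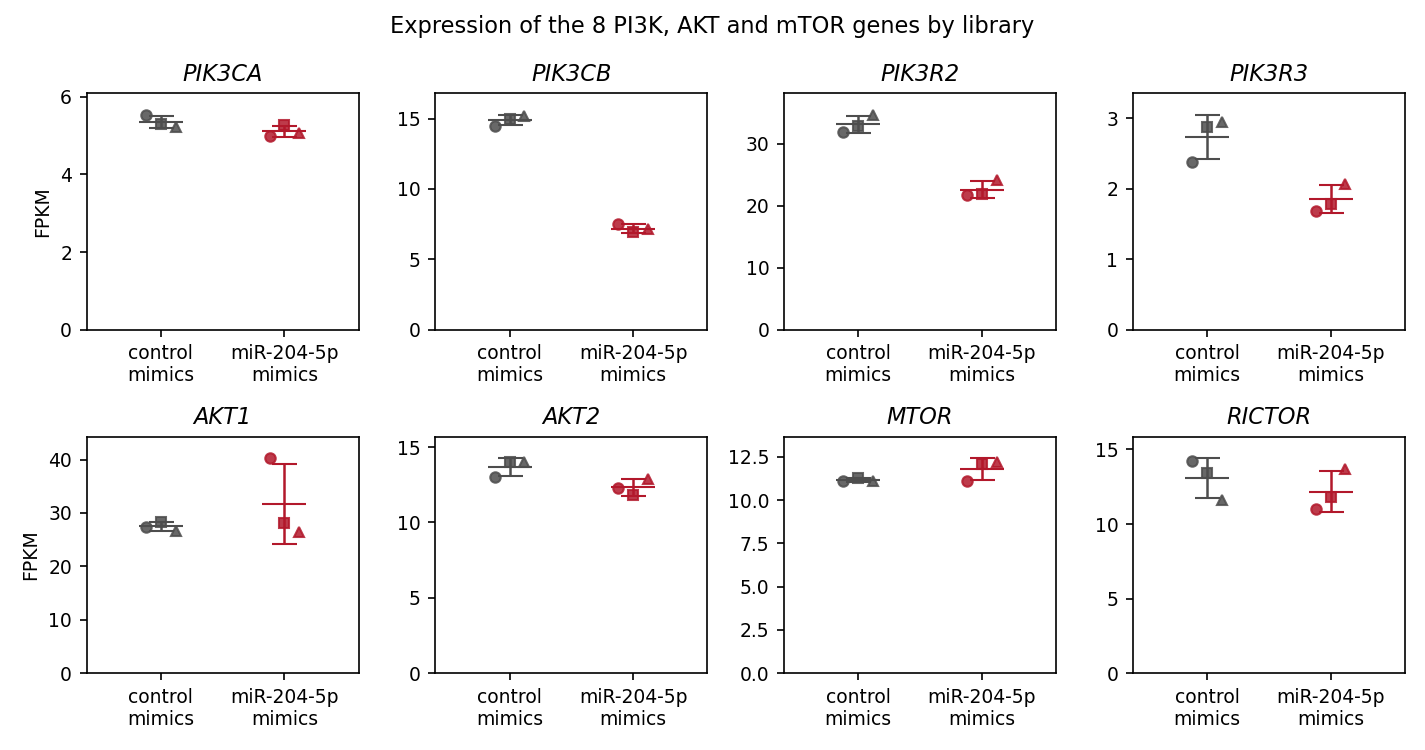
FPKM of each of the 8 genes in the 3 control mimics libraries (grey) and the 3 miR-204-5p mimics libraries (red), on axes from 0. Circles, squares and triangles are replicates 1, 2 and 3, the wide bar is the mean and the error bars are SD. PIK3CB, PIK3R2, PIK3R3 and AKT2 show no overlap between groups, and 1 AKT1 library stands at 40.2 FPKM.

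Of the 2 catalytic subunits, PIK3CB fell while PIK3CA did not pass the test. PIK3CB (ENSG00000051382, chr3:138652699-138759359, minus strand) encodes p110beta, the isoform known for its use by G protein-coupled receptors. Here and below, the coordinates beside a gene ID are the span of the transcript listed for the gene. It measured 7.50, 6.91 and 7.12 FPKM with miR-204-5p mimics and 14.5, 15.0 and 15.2 FPKM with control mimics. The highest mimics library was well under the lowest control library. The means were 7.18 ± 0.297 and 14.9 ± 0.314 FPKM (SD, n = 3), which is a log2 change of -0.96 (SE 0.0484, 95% interval -1.07 to -0.84, limma-adjusted p = 6.74e-05). Ordered from the most negative log2 change upward, PIK3CB stood at position 138 of the 14959 genes. Its 8mer lies in the 3'UTR of the listed transcript.

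PIK3CA (ENSG00000121879, chr3:179148114-179198888, plus strand) encodes p110alpha, the isoform used mainly by receptor tyrosine kinases. It measured 5.00, 5.27 and 5.07 FPKM with miR-204-5p mimics and 5.53, 5.29 and 5.22 FPKM with control mimics, and the groups overlapped. The means were 5.11 ± 0.14 and 5.35 ± 0.165 FPKM (SD, n = 3), which is a log2 change of -0.05 with a 95% interval of -0.18 to 0.08 (adjusted p = 0.467 by limma). The transcript listed for PIK3CA is 245 bases long with 2 exons, while the longest annotated transcript has 9093 bases. The coordinates above span only the listed transcript, and the 3'UTR window of PIK3CA lies outside them. If the values rested on 245 bases alone, 16 to 21 fragments would lie behind each and counting error would give a coefficient of variation of 22.9%. The libraries varied by 2.74% and 3.08%, so the length that the FPKM of PIK3CA rests on is uncertain and its level should not be set against other genes.

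The 2 regulatory subunits both fell. PIK3R2 (ENSG00000105647, chr19:18153118-18170540, plus strand) encodes p85beta, a regulatory subunit with the same docking domains as the product of PIK3R1. It measured 21.7, 21.8 and 24.1 FPKM with miR-204-5p mimics and 31.8, 32.9 and 34.6 FPKM with control mimics. All mimics libraries were below all control libraries. The means were 22.5 ± 1.38 and 33.1 ± 1.37 FPKM (SD, n = 3), which is a log2 change of -0.54 (SE 0.0558, 95% interval -0.67 to -0.40, limma-adjusted p = 0.000648). No seed match was found in its 3'UTR of 1246 bases, and none of at least 7 bases in its coding sequence. PIK3R2 is the member whose reads are hardest to assign. Of its stretches of 50 bases, 97.9% also occur in other annotated genes, nearly all of them in AC007192.1, a same-strand gene that overlaps it over 3947 bases. AC007192.1 was listed at 0 to 0.228 FPKM in every library, with a log2 change of 0.00 (adjusted p = 0.995 by limma), and how the authors' counting shared reads between the pair is not given in the sources used here.

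PIK3R3 (ENSG00000117461, chr1:46040140-46132642, minus strand) encodes p55gamma, a shorter regulatory subunit. It measured 1.69, 1.79 and 2.07 FPKM with miR-204-5p mimics and 2.38, 2.88 and 2.95 FPKM with control mimics. The groups did not overlap, but the gap between 2.07 and 2.38 FPKM was smaller than the spread within either group. The means were 1.85 ± 0.197 and 2.74 ± 0.315 FPKM (SD, n = 3), which is a log2 change of -0.39 (SE 0.0887, 95% interval -0.60 to -0.18, limma-adjusted p = 0.0135). Between 124 and 272 fragments lay behind each value if the listed length of 5609 bases was used. Its 8mer lies in the listed 3'UTR, and 22.4% of its stretches of 50 bases are shared with AL358075.4, an overlapping same-strand gene that is not analysed here.

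Neither AKT kinase passed the test. AKT1 (ENSG00000142208, chr14:104769349-104794124, minus strand) is the isoform most tied to survival and growth. It measured 40.2, 28.1 and 26.5 FPKM with miR-204-5p mimics and 27.4, 28.3 and 26.7 FPKM with control mimics. Mimics replicate 1 stood apart, and the other 5 libraries lay between 26.5 and 28.3 FPKM. The means were 31.6 ± 7.50 and 27.5 ± 0.775 FPKM (SD, n = 3), which is a log2 change of 0.17 with a 95% interval of -0.18 to 0.53 (adjusted p = 0.397 by limma). Without mimics replicate 1 the log2 fold change was -0.0098 (adjusted p = 0.896 by limma), so the sign rests on that library. AKT1 holds no seed match in its 3'UTR of 992 bases. An antisense gene, AL583722.2, covers 663 bases of the listed transcript, and without a stated strand setting reads from the pair cannot be told apart.

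AKT2 (ENSG00000105221, chr19:40230317-40285395, minus strand) is the isoform best known for insulin-stimulated glucose uptake. It measured 12.3, 11.8 and 12.9 FPKM with miR-204-5p mimics and 13.0, 14.0 and 14.0 FPKM with control mimics. The groups did not overlap, by the narrow gap between 12.9 and 13.0 FPKM. The means were 12.3 ± 0.58 and 13.6 ± 0.592 FPKM (SD, n = 3), a ratio of 0.903 and a log2 change of -0.14 with a 95% interval of -0.27 to -0.01 (adjusted p = 0.0881 by limma). After scaling the libraries to equal sums or equal medians the log2 fold change was -0.18 and the call was made (limma-adjusted p = 0.0446 and 0.037). Its 3'UTR holds a second, shorter match, a 6mer at base 2216.

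Neither MTOR nor RICTOR passed the test. MTOR (ENSG00000198793, chr1:11106535-11131558, minus strand) measured 11.1, 12.1 and 12.2 FPKM with miR-204-5p mimics and 11.1, 11.3 and 11.1 FPKM with control mimics. In mimics replicate 1 it was at the control level and in the other 2 mimics libraries slightly above it. The means were 11.8 ± 0.64 and 11.2 ± 0.0896 FPKM (SD, n = 3), which is a log2 change of 0.07 with a 95% interval of -0.05 to 0.20 (adjusted p = 0.31 by limma). The transcript listed for MTOR, which the coordinates above span, has 4017 bases in 20 exons. The longest annotated transcript has 8677 bases, so the level of MTOR per length is uncertain too.

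RICTOR (ENSG00000164327, chr5:38937919-39074408, minus strand) encodes the subunit that defines mTORC2. It measured 11.0, 11.8 and 13.7 FPKM with miR-204-5p mimics and 14.2, 13.4 and 11.6 FPKM with control mimics. Each group spanned most of the range of the other. The means were 12.1 ± 1.40 and 13.1 ± 1.33 FPKM (SD, n = 3), which is a log2 change of -0.10 with a 95% interval of -0.34 to 0.14 (adjusted p = 0.453 by limma). Its libraries varied by 11.5% and 10.2%, above the 2.37% that counting alone would give at its 1366 to 2038 fragments. OSMR, an antisense neighbour that overlaps RICTOR over 229 bases, was lower with mimics (11.9 against 15.9 FPKM, limma-adjusted p = 0.000561), and its part in the values of RICTOR was not tested.

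**Figure D3:**
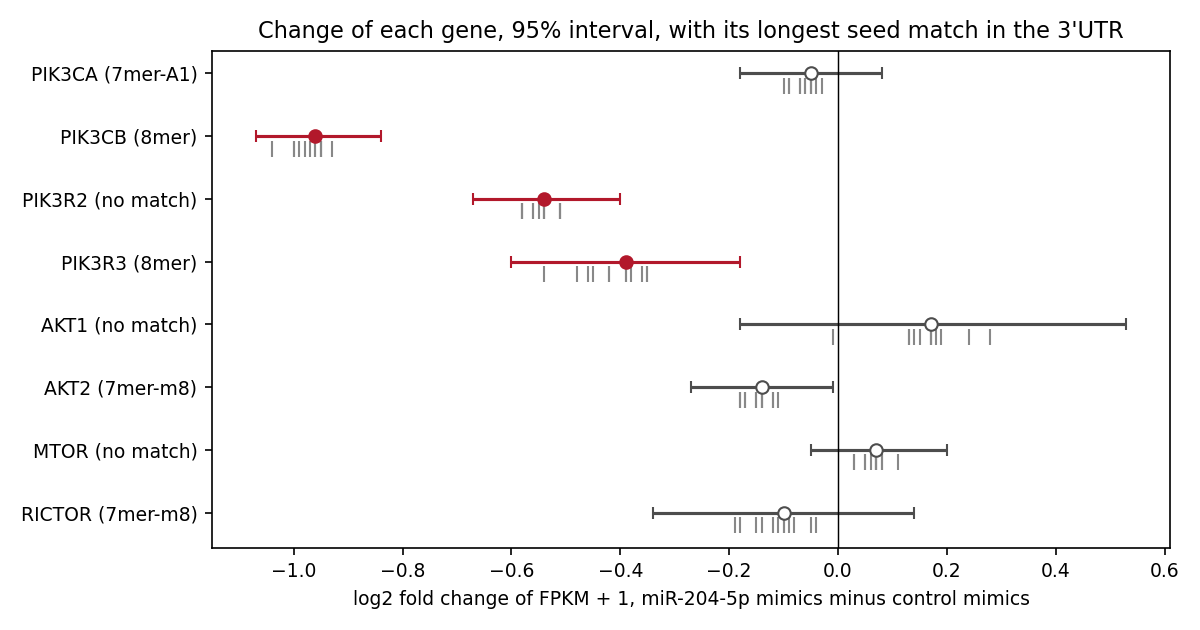
Log2 fold change of FPKM + 1, miR-204-5p mimics minus control mimics, for each of the 8 genes with its 95% interval, and in brackets the longest seed match of its 3'UTR. Filled red points passed the adjusted p threshold, and the small ticks are the values under the 12 alternative settings. The intervals of PIK3CB, PIK3R2 and PIK3R3, and by a narrow margin that of AKT2, lie below 0, and a tick of AKT1 reaches -0.0098.

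Set beside the seed matches, the 2 members with an 8mer both fell, and so did PIK3R2, which has no match. The 3 members whose longest match was 7 bases, AKT2, RICTOR and PIK3CA, had log2 fold changes of -0.14, -0.10 and -0.05, and none passed the test. The other 2 members without a match, AKT1 and MTOR, had positive values, 0.17 and 0.07. With 8 genes this is a description of the values.

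For pairs of members that do related work, the difference was also taken within each library, where a factor common to the library largely drops out. MTOR and RICTOR are partners in mTORC2, and the other pairs are of the same family. An exact two-sided permutation test over 3 against 3 libraries cannot give a p below 0.1, and 4 pairs were compared. The difference in log2(FPKM + 1) between PIK3CB and PIK3CA was 0.50, 0.34 and 0.42 with miR-204-5p mimics and 1.25, 1.34 and 1.38 with control mimics. It thus shrank by 0.90 (SE 0.0612) without overlap between groups (exact permutation p = 0.1, adjusted p = 0.2). p110beta mRNA moved against p110alpha mRNA by more than any library moved from its group. Since the length behind the FPKM of PIK3CA is uncertain, only the change in this difference is read, and not its level. The size of the change depends on the pseudocount, and it was -0.98 with 0.1 in place of 1.

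The regulatory pair, PIK3R2 minus PIK3R3, was 3.08, 3.03 and 3.03 with miR-204-5p mimics and 3.28, 3.13 and 3.17 with control mimics, a change of -0.15 (SE 0.0489, exact permutation p = 0.1, adjusted p = 0.2). With a pseudocount of 0.1 in place of 1 the change was -0.01, so the unequal fall of the regulatory subunits is not separable from the pseudocount. The FPKM ratios of both genes were nearly equal, 0.68 and 0.675.

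The difference AKT1 minus AKT2 was 1.63, 1.19 and 0.98 with miR-204-5p mimics and 1.02, 0.97 and 0.89 with control mimics. The groups overlapped, and the change was 0.31 (SE 0.196, exact permutation p = 0.2, adjusted p = 0.2), or 0.13 without mimics replicate 1. For MTOR minus RICTOR the values were 0.01, 0.04 and -0.15 against -0.33, -0.23 and -0.06, again with overlap, and the change was 0.18 (SE 0.101, exact permutation p = 0.2, adjusted p = 0.2).

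**Figure D4:**
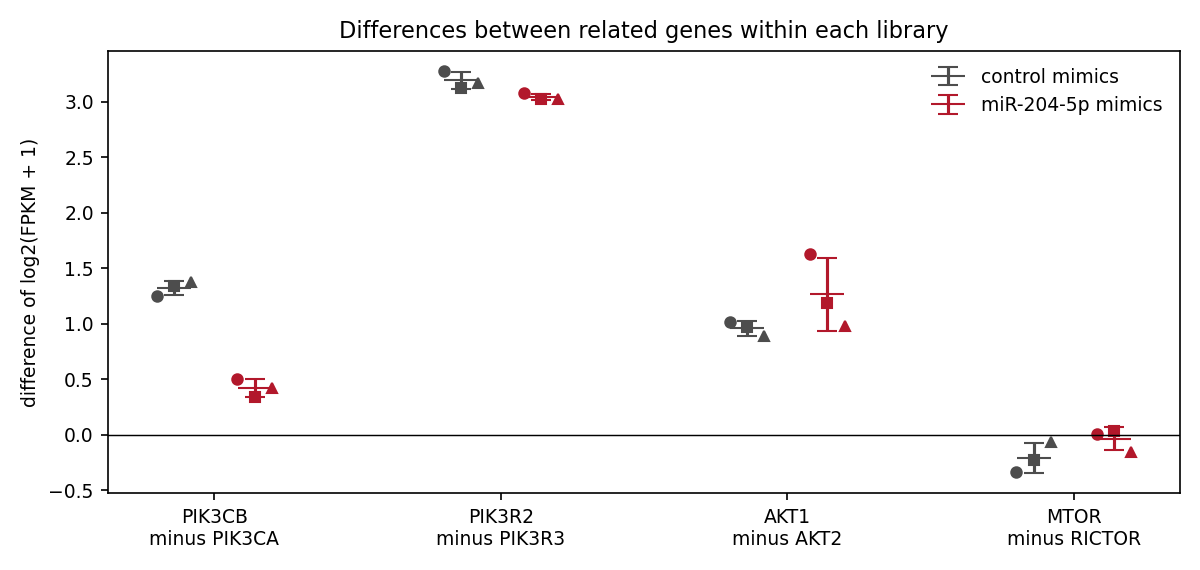
Difference in log2(FPKM + 1) between 2 genes that do related work within each library, for 4 pairs, in control mimics (grey) and miR-204-5p mimics (red). Symbols mark replicates 1, 2 and 3, the wide bar is the mean and the error bars are SD. PIK3CB minus PIK3CA drops from a mean of 1.32 to 0.42, the widest separation of the 4 pairs.

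The order of the levels changed at PIK3R2, which passed below AKT1, and at PIK3CB. In control mimics libraries the order by mean FPKM was PIK3R2 (33.1), AKT1 (27.5), PIK3CB (14.9), AKT2 (13.6), RICTOR (13.1), MTOR (11.2) and PIK3R3 (2.74). Only the neighbours AKT2 and RICTOR overlapped in their libraries. In miR-204-5p mimics libraries the order was AKT1 (31.6), PIK3R2 (22.5), AKT2 (12.3), RICTOR (12.1), MTOR (11.8), PIK3CB (7.18) and PIK3R3 (1.85). There AKT2, RICTOR and MTOR overlapped one another in turn, and PIK3CB had passed below all 3 of them. PIK3CA is left out of the order because of its listed length. For AKT1 and MTOR the listed transcript is also shorter than the longest one, so their places are uncertain.

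The 3 genes whose profile over the 6 libraries lay nearest to that of PIK3CB were PBXIP1, DNAJB5 and BTBD1, by Euclidean distance of centred log2(FPKM + 1) among 11503 other genes with a mean of at least 1 FPKM. PBXIP1 (distance 0.0556) went from 49.0 to 24.6 FPKM, DNAJB5 (0.0849) from 2.59 to 0.816 FPKM and BTBD1 (0.101) from 17.3 to 8.81 FPKM. As FPKM ratios these are 0.501, 0.315 and 0.508, against 0.482 for PIK3CB. The nearness of the weakly expressed DNAJB5 thus depends on the pseudocount of 1. BTBD1 holds an 8mer and DNAJB5 a 7mer-A1 in the longest 3'UTR, and PBXIP1 has no match.

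The rest of the cascade was followed in 11 lists of genes with known roles. Outside the 8 genes these hold 91 genes, of which 87 are in the table, and 22 were lower, 20 higher and 45 not called. That is 48.3% called, against 40.8% of all genes, with a median log2 fold change of -0.03. The background of all genes holds weakly expressed genes, of which these lists have few. With only genes of a mean of at least 1 FPKM fitted, 44 of 81 pathway genes were called, against 5761 of all 11504 genes. The same limit holds for the shares of single lists below. The balance of lower and higher depended on scaling: 27 were lower and 14 higher after scaling to equal sums, and 28 and 13 after scaling to equal medians.

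Among the class I catalytic subunits, PIK3CB was the only 1 of 4 called, and 3 of the 4 had a mean of at least 1 FPKM. PIK3CD, the p110delta subunit of mostly blood cells, stood at 5.20 ± 0.971 against 5.29 ± 0.31 FPKM (adjusted p = 0.866 by limma). Among the regulatory subunits 2 of 4 in the table were lower, which are PIK3R2 and PIK3R3. A mean of at least 1 FPKM was reached by 3 of these 4. PIK3R1, which encodes p85alpha, p55alpha and p50alpha, stood at 1.81 ± 0.398 against 1.73 ± 0.503 FPKM (adjusted p = 0.845 by limma). The 95% interval of its log2 fold change, -0.33 to 0.42, is wide enough to hold a change of the size seen for PIK3R3 in the upward direction. PIK3R6 is not analysed here.

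Of 4 class II and III genes only PIK3R4 was called. It encodes the VPS15 partner of the class III enzyme in endosomes and autophagy, and it rose from 6.76 ± 0.289 to 9.27 ± 0.234 FPKM (log2 change 0.40, adjusted p = 0.00148 by limma). PIK3C2A, a class II enzyme of clathrin-coated membranes, went from 13.7 to 12.4 FPKM (adjusted p = 0.0531 by limma) and was called in 4 of 12 alternative settings. PDPK1, which encodes the PDK1 kinase that activates AKT, went from 7.50 to 6.70 FPKM (adjusted p = 0.0766 by limma) and was called in 3 of 12.

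In the mTOR complexes, 4 of 5 mTORC1 genes and 5 of 7 mTORC2 genes had a mean of at least 1 FPKM. Of the 5 and of the 7, 1 each was called, and both counts are MLST8, the subunit shared by the complexes. It went from 16.7 ± 0.227 to 18.5 ± 0.504 FPKM (log2 change 0.14, adjusted p = 0.03 by limma), a call that was lost in 9 of 12 alternative settings (limma-adjusted p up to 0.132). AKT1S1, which encodes the mTORC1 inhibitor PRAS40, went from 10.1 to 8.57 FPKM (adjusted p = 0.0544 by limma) and was called in 6 of 12 settings. MAPKAP1, the mTORC2 subunit SIN1, stood at 23.1 against 22.0 FPKM (adjusted p = 0.557 by limma).

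Of 8 phosphatases that oppose PI3K or AKT, 2 were lower and 1 higher (37.5% called). INPPL1, which encodes the SHIP2 phosphatase of PIP3, fell from 85.7 ± 8.70 to 55.5 ± 3.51 FPKM (log2 change -0.61, adjusted p = 0.00171 by limma). Its listed transcript has only 375 bases, so its level is uncertain. INPP4B, which removes a phosphate from PI(3,4)P2, rose from 0.868 ± 0.102 to 1.77 ± 0.0385 FPKM (log2 change 0.57, adjusted p = 0.000663 by limma). INPP5K stood at 13.6 FPKM in both groups.

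Receptors and adaptors upstream of PI3K moved both ways, with 4 lower, 4 higher and 4 not called of 12 (66.7% called, against 40.8% of all genes). ERBB3, a receptor whose tail docks PI3K, fell from 27.2 ± 1.80 to 7.11 ± 0.673 FPKM (log2 change -1.80, adjusted p = 4.47e-05 by limma), although its listed transcript has only 237 bases. Its longest annotated 3'UTR holds an 8mer. INSR, the insulin receptor, fell from 6.47 ± 0.202 to 4.58 ± 0.314 FPKM (log2 change -0.42, adjusted p = 0.00277 by limma). CBL, a ubiquitin ligase and adaptor, stood at 2.34 FPKM in control mimics replicate 3 and at 12.1 to 13.8 FPKM in the other 5 libraries (adjusted p = 0.33 by limma). Without that library its log2 fold change went from 0.72 to 0.04.

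Between AKT and mTORC1 stands the TSC complex, which holds the small GTPase RHEB inactive. Of 5 such genes TSC2 fell from 15.4 ± 0.554 to 13.1 ± 0.23 FPKM (log2 change -0.22, adjusted p = 0.00834 by limma) and TBC1D7, the third subunit of the complex, rose from 1.28 ± 0.0565 to 2.01 ± 0.232 FPKM (log2 change 0.40, adjusted p = 0.00583 by limma). RHEB stood at 15.2 against 15.5 FPKM (adjusted p = 0.775 by limma). In the amino acid branch that brings mTORC1 to the lysosome, 7 genes were lower, 4 higher and 14 not called of 25 (44.0% called). NPRL2, a subunit of the inhibitory GATOR1 complex, rose from 2.74 ± 0.214 to 5.31 ± 0.655 FPKM (log2 change 0.75, adjusted p = 0.00119 by limma). LAMTOR1, the membrane anchor of Ragulator, rose from 21.5 ± 0.659 to 32.5 ± 0.717 FPKM (log2 change 0.58, adjusted p = 0.000159 by limma).

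The kinases and substrates downstream of AKT or mTOR had 8 lower and 7 higher of 20, which is 75.0% called against 40.8% of all genes. PDCD4, an inhibitor of translation initiation that S6 kinase marks for degradation, fell from 37.7 ± 2.32 to 20.7 ± 0.823 FPKM (log2 change -0.83, adjusted p = 0.000151 by limma). TBC1D4, the AKT substrate AS160 of glucose transporter traffic, fell from 13.5 ± 0.258 to 7.39 ± 0.24 FPKM (log2 change -0.79, adjusted p = 9.72e-05 by limma). EIF4B, a cofactor of the initiation helicase, went from 155 to 142 FPKM (adjusted p = 0.0737 by limma) and was called in 4 of 12 settings.

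**Figure D5:**
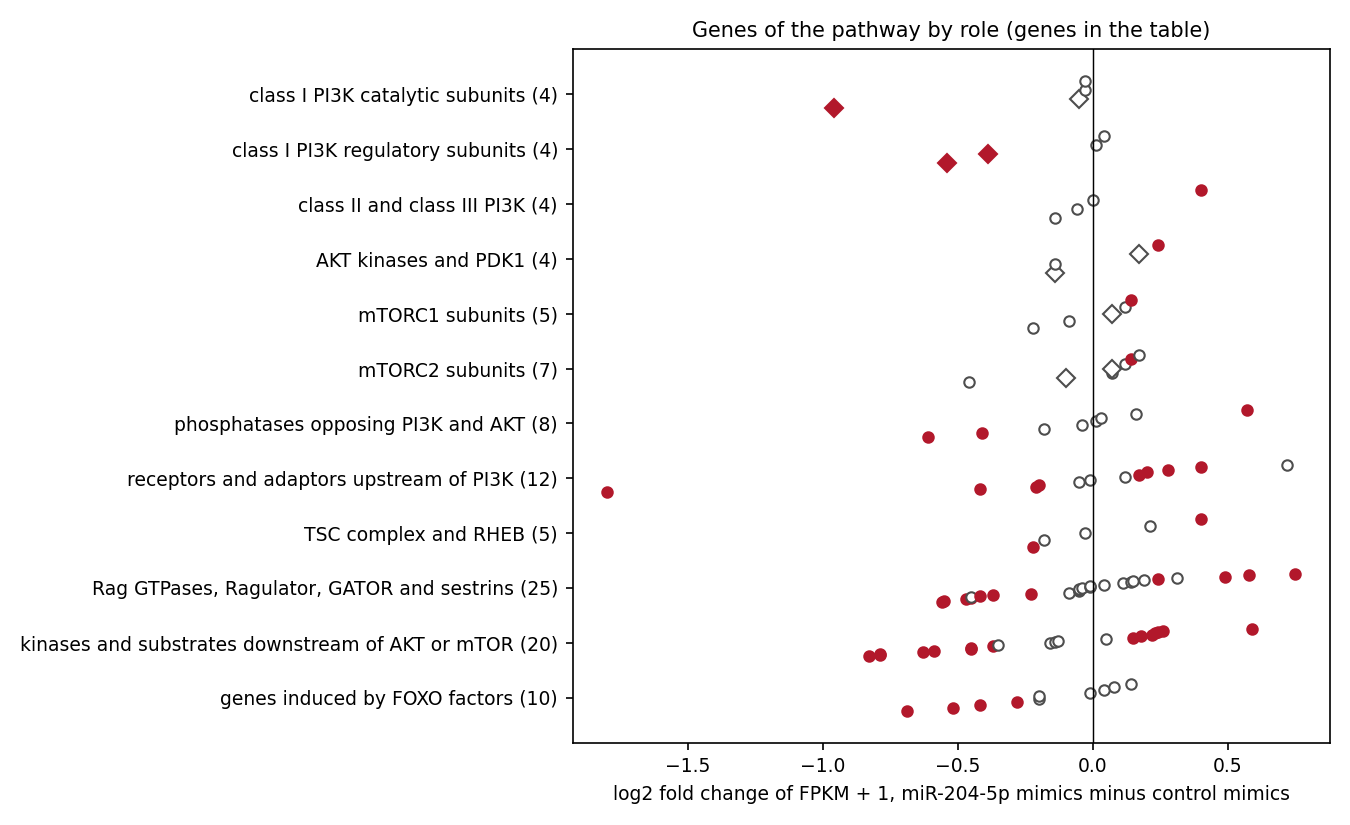
Log2 fold change of FPKM + 1, miR-204-5p mimics minus control mimics, for every gene of the pathway lists and of a list of FOXO-induced genes (rows, number in the table in brackets). Diamonds are the 8 genes described in full, circles the others, and filled symbols passed the adjusted p threshold. Called genes lie on both sides of 0 in the receptor, lysosomal and downstream rows, and ERBB3 stands furthest out at -1.80.

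A seed match of at least 7 bases was present in 6 of the 22 pathway genes that were lower, 4 of the 20 that were higher and 14 of the 45 not called, where 27.1% of all genes hold such a match. An 8mer was held by 2 of those that were lower (ERBB3 and RRAGC), by none that were higher and by 2 not called (INPP4A and TSC1), where 8.59% of all genes hold an 8mer. RRAGC, INPP4A and TSC1 are named only for their match, after the values were seen.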

How the data were processed

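RNA was extracted as total RNA, libraries were made with a TruSeq kit and sequenced on an Illumina HiSeq machine. Per the labels, the authors used HISAT2, StringTie and the hg38 build. Versions, annotation and strand setting are not given in the sources used here. The deposited values are FPKM per gene, with 1 listed transcript for each. The deposited table also holds the authors' own log2 fold changes, p-values and FDR from edgeR, which were not used.

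The design took the study's comparison, but FPKM values cannot enter a count model, so limma 3.58.1 (lmFit, eBayes with trend, R 4.3.3) was fitted to log2(FPKM + 1) of all 14959 genes, without filter or further scaling, with Benjamini-Hochberg adjustment at 0.05. In the table, 720 genes were at 0 in at least 1 library. Depth was inferred from the smallest step of FPKM times length in genes with 1 transcript: 28.0% to 31.6% of values were whole multiples within 0.02, against 3.05% to 5.65% at a wrong step, so read counts were not recovered. Fragments behind a value cover counting error only.

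Of the listed transcripts, 14951 were found in GENCODE 29 (GRCh38), 14847 with the same coordinates, including all 8 members, and 3'UTR sequences were read from its transcripts. The miRNA sequence came from RefSeq. Python 3.11.15, pandas 2.3.3 and scipy 1.17.1 were used.

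The members and lists were chosen with earlier results of these data known. In each list the 2 called genes with the largest absolute log2 fold change and a mean of at least 1 FPKM were named, with the most abundant gene that was not called. RRAGC, INPP4A, TSC1 and the overlapping genes fall outside that rule, and some genes of the lists enter the counts but are not reported here by name. Alternatives were a pseudocount of 0.1, a minimum mean of 1 FPKM, scaling to equal sums or medians, quantile normalization, the replicate number as a block, leaving out each library, and other 3'UTR choices.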

Additional observations from a re-analysis of the deposited data

How the results depend on the processing

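The number of members called was 3 in 10 of 12 alternatives and 4 after scaling to equal sums or medians, where AKT2 was added. PIK3CB (limma adjusted p 4.16e-05 to 0.0026), PIK3R2 (0.000493 to 0.00428) and PIK3R3 (0.00563 to 0.0468) were called in all 12. The count of pathway genes called went from 42 to between 31 and 44. AKT1 went from 0.17 to between -0.0098 and 0.28 when a library was left out, with the lowest value without mimics replicate 1. Other genes that changed sign were never called: leaving out a library gave -0.15 to 0.04 for PIK3CD, -0.07 to 0.19 for PIK3R1, -0.10 to 0.08 for INPP5K and -0.06 to 0.03 for RHEB. PIK3R1 was at -0.04 after quantile normalization, and INPP5K at -0.03, -0.04 and -0.0055 after scaling to equal sums, to equal medians and by quantiles. With a pseudocount of 0.1, the change in PIK3CB minus PIK3CA was -0.98 and in PIK3R2 minus PIK3R3 -0.01. Of all genes called, 58.7% were higher, and 50.1% after quantile normalization, while the median log2 fold change of all genes stayed between 0.00 and 0.056.

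Libraries with the same replicate number did not deviate together (correlation -0.04, -0.02 and -0.11 over 11504 genes). Those with different numbers gave -0.07 to 0.11. Deviations from means of 3 libraries cannot settle whether the numbers pair samples, and the labels do not say. With the replicate number as a block, 3 members and 31 pathway genes were called, 19 lower and 12 higher. Matches of at least 7 bases were found in 4 members in the listed transcripts' 3'UTRs and in 5 with all 3'UTRs joined.

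Between 124 and 272 fragments lay behind the values of PIK3R3 at its listed length, and the length behind the FPKM of PIK3CA is not known. Groups of 3 were too small for a test of single libraries as outliers. Reads that PIK3R2 and AC007192.1 share could not be assigned from the table.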

Other observations

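AKT keeps FOXO transcription factors out of the nucleus, and a list of 10 genes that FOXO factors induce was read at the far end of the cascade. The list shares some genes with the pathway lists, among them INSR, which was called lower and is counted in both. Of these, 4 were lower with miR-204-5p mimics, none was higher and 6 did not pass the test, with a median log2 fold change of -0.20 against 0.03 over all genes. The share called, 40.0%, was near the 40.8% of all genes, of which 16.8% were called lower and 23.9% higher. CCNG2, an unconventional cyclin that restrains the cell cycle, measured 10.8, 10.2 and 10.1 FPKM with miR-204-5p mimics and 17.4, 17.3 and 17.1 FPKM with control mimics (log2 change -0.69, adjusted p = 0.000113 by limma). TXNIP, an inhibitor of thioredoxin and of glucose uptake, measured 421, 383 and 418 FPKM against 568, 640 and 544 FPKM (log2 change -0.52, adjusted p = 0.00196 by limma). In neither gene did the groups overlap. TXNIP holds an 8mer in the longest 3'UTR and CCNG2 no match. CDKN1B, the cyclin-dependent kinase inhibitor p27, stood at 61.4 against 58.0 FPKM (adjusted p = 0.155 by limma), with a 95% interval of -0.01 to 0.17 on the log2 scale.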
